A study of Mus musculus with 8 samples.

Results

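The antioxidant enzymes described here are 10 genes: the superoxide dismutases Sod1 and Sod2, the catalase gene Cat, the glutathione peroxidases Gpx1 and Gpx4, the peroxiredoxins Prdx1, Prdx3, Prdx5 and Prdx6, and the glutathione reductase gene Gsr. They were chosen by gene name, not by any measured value, though earlier results of these data were known. They were found through the transcript accession of each array probe. All 10 were on the array, with 16 probes between them, and all 10 were among the 11072 genes that could be tested out of 21368 named genes. RNA came from isolated hepatocytes of male mice aged 12 to 14 weeks on a standard diet, with 4 hCNR1+/+ mice (labelled hCNR1_WT, strain CNRO) and 4 hCNR1-/- mice (labelled hCNR1_cKO, strain CNRO Alb-Cre), littermates from a cross of Alb-Cre mice with CNR1flox/flox mice, and 1 array per mouse. The knockout removes the cannabinoid 1 receptor gene Cnr1 where the albumin promoter drives Cre, which is in hepatocytes, so other liver cells keep the gene. The Cre transgene is named in the strain label of the knockout group alone, and its effect and that of the deletion cannot be told apart. The question was whether hepatocytes without the receptor carry different mRNA levels of these enzymes in mice on a standard diet.

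Hepatocytes make superoxide and hydrogen peroxide in the mitochondria, in peroxisomes and during the oxidation of drugs and fatty acids. Superoxide dismutases turn superoxide into hydrogen peroxide, and catalase, the glutathione peroxidases and the peroxiredoxins turn hydrogen peroxide into water. The peroxidases are recharged by glutathione and glutathione reductase or by thioredoxin and thioredoxin reductase, and both routes draw on NADPH.

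No antioxidant enzyme passed an adjusted p of 0.05 between the genotypes (limma with Benjamini-Hochberg adjustment over all 11072 genes), in either direction. Of all tested genes, 1.3% were called lower and 2.94% higher in hCNR1-/- hepatocytes at that threshold. At an unadjusted p below 0.05, 2 of the 10 enzymes were higher and none was lower, beside 14.7% and 6.92% of all tested genes. These were Prdx5, at 1.55 times its hCNR1+/+ level, and Gpx4, at 1.48 times. The same 2 enzymes were those whose 4 hCNR1-/- arrays all lay above the 4 hCNR1+/+ arrays, which held for 12.7% of all tested genes, and none of the 10 lay wholly below, which held for 5.04%. The share of enzymes past these looser thresholds therefore stood close to the background of the whole array. The fitted difference was above 0 for 5 enzymes and below 0 for 5, with a median log2 fold change of 0.12, beside 0.08 over all tested genes.

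All values below are log2 intensities relative to the 75th percentile of the same array, so a level can be compared between arrays for 1 probe but not between genes. The 8 arrays lay on 1 slide, hCNR1+/+ in its first row and hCNR1-/- in its second, so the genotype cannot be told apart from the row. The hCNR1-/- replicate 4 array stood apart. Its 75th percentile was 29.3 intensity units, against 62.0 to 139 on the other 7 arrays, and 28.6% of its spots were well above background, against 35.0% to 42.3%. All 10 hepatocyte marker genes passed the filter on dim probes, and their summed level overlapped between the groups (12.83 to 13.70 in hCNR1+/+, 12.97 to 14.03 in hCNR1-/-). The sum is carried by the brightest genes. Singly, 6 of the 10 had a fitted difference below 0, beside 43.4% of all tested genes. At an unadjusted p below 0.05 (limma) 1 was lower and 1 higher, beside 6.92% and 14.7%. The higher one also passed an adjusted p of 0.05, beside 2.94%. The 1 Cnr1 probe never rose well above background and so does not check the genotype.

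Markers of other cells were also read, since macrophages and red blood cells hold these enzymes too and fewer cells of a type cannot be told apart from less RNA per cell. Of 12 listed Kupffer cell markers 10 were tested, and all 10 had a fitted difference below 0, beside 43.4% of all tested genes. In limma 6 were lower at an unadjusted and 2 at an adjusted p below 0.05, beside 6.92% and 1.3% of all tested genes. The 10 tested markers had a summed level of 6.42 to 7.40 in hCNR1+/+ and 5.69 to 6.14 in hCNR1-/-, and Adgre1 and Timd4 were not well above background. Their part in the enzyme values was not tested. Of 8 erythrocyte markers only Hba-a2 and Alas2 were tested, and their summed level ran from 4.18 to 4.80 in hCNR1+/+ and from 4.01 to 4.81 in hCNR1-/-. The summed neutrophil level, which rests on Elane alone of 9 markers, ran from 2.91 to 3.29 in hCNR1+/+ and from 3.48 to 4.36 in hCNR1-/-. The summed lymphocyte level, over 3 of 10 markers, ran from 6.39 to 6.70 in hCNR1+/+ and from 6.77 to 8.01 in hCNR1-/-. Of all tested genes, taken singly, 12.7% lay wholly higher in hCNR1-/- and 5.04% wholly lower. The part of these cell types in the enzyme values was not tested either.

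**Figure D1:**
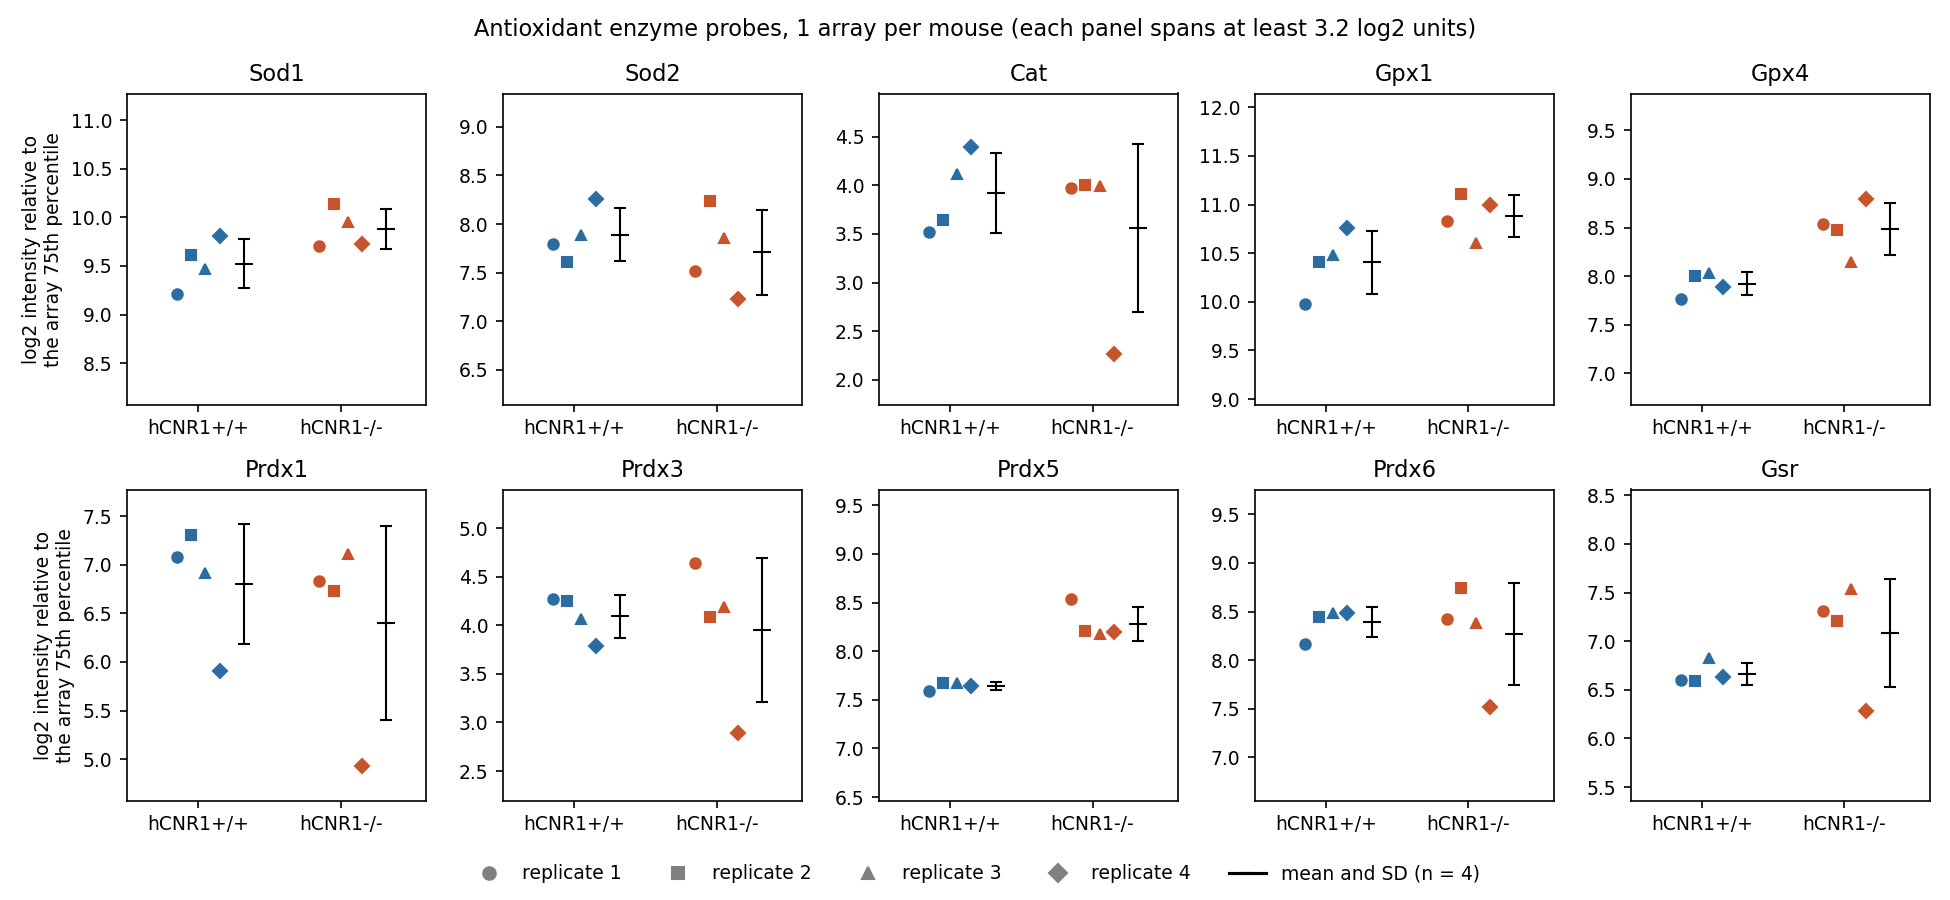
Levels of the 10 antioxidant enzymes on each array, as log2 intensity relative to the 75th percentile of the array, with 1 point per mouse, the mean and the SD (n = 4), and a different y axis in each panel. Prdx5 and Gpx4 are the panels in which the groups do not overlap, and hCNR1-/- replicate 4 (diamond) is the lowest of the 8 arrays in Sod2, Cat, Prdx1, Prdx3, Prdx6 and Gsr.

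Prdx5 encodes a peroxiredoxin found in mitochondria, peroxisomes and the cytosol, which reduces hydrogen peroxide, alkyl peroxides and peroxynitrite. It read 7.59, 7.68, 7.67 and 7.65 on hCNR1+/+ arrays 1 to 4, and 8.54, 8.21, 8.18 and 8.195 on hCNR1-/- arrays 1 to 4. The hCNR1+/+ arrays lay within 0.09 of each other, every hCNR1-/- array lay above them, and hCNR1-/- replicate 1 was the highest. The hCNR1+/+ mean was 7.65 ± 0.04 and the hCNR1-/- mean 8.28 ± 0.17 (SD, n = 4 each), a log2 fold change of 0.63 (SE 0.18, 95% interval 0.23 to 1.04). The adjusted p was 0.0823 in limma, and the exact two-sided permutation p was 0.0286, the smallest that 4 against 4 arrays can give. Without hCNR1-/- replicate 4 the log2 fold change was 0.66 with an adjusted p of 0.03 in limma, and with all 8 arrays the adjusted p was 0.0472 under a trended, robust prior and 0.00918 with array weights, so its side of the threshold depended on that array and on the variance model. Under quantile normalization the difference was 0.33 with an unadjusted limma p of 0.0973, and under median scaling 0.59 with 0.188.

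The 250 bases before the annotated Prdx5 start are printed because Prdx5 had the lowest p of the 10 enzymes, beside the same window of Prdx1 and Sod1, the 2 enzymes whose window holds the core letters of the antioxidant response element. The sequences are those of RefSeq on GRCm38.p6, on the strand of the gene, for Prdx5 at chr19:6910107-6910356 on the minus strand, for Prdx1 at chr4:116685349-116685598 on the plus strand and for Sod1 at chr16:90220512-90220761 on the plus strand. Capitals mark a match to TGACNNNGC or its reverse complement GCNNNGTCA.
Prdx5: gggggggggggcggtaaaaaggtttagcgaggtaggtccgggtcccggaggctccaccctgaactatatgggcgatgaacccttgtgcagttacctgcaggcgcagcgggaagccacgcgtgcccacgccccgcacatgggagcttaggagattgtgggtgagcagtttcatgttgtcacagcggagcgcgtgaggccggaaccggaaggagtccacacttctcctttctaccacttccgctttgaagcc
Prdx1: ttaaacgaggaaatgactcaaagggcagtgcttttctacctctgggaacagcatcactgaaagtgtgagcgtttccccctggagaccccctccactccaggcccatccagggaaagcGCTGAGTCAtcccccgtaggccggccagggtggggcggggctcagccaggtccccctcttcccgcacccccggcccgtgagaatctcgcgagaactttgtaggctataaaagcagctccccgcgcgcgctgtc
Sod1: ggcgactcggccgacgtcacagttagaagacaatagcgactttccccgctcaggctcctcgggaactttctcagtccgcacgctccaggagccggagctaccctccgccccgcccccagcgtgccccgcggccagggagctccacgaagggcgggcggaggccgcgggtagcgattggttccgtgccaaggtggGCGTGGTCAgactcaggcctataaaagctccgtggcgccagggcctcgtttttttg
The match began 133 bases before the Prdx1 start and 56 bases before the Sod1 start, both on the reverse strand, and the one in Prdx1 contains the AP-1 letters TGAGTCA. Windows were listed for 8 of the 10 enzymes, and 2 of those 8 genes held a match, beside 11.5% of the 27025 genes with a listed window. Prdx6 and Gsr had no listed window. The letters are a description of the window, and their absence from the Prdx5 window says only that they do not occur in these bases.

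Gpx4 encodes the selenium-containing peroxidase that reduces lipid peroxides within membranes and so restrains ferroptosis. It read 7.76, 7.998, 8.03 and 7.89 on the hCNR1+/+ arrays and 8.53, 8.47, 8.14 and 8.79 on the hCNR1-/- arrays. All 4 hCNR1-/- arrays lay above all 4 hCNR1+/+ arrays, with the smallest gap between hCNR1+/+ replicate 3 and hCNR1-/- replicate 3. The hCNR1+/+ mean was 7.92 ± 0.12 and the hCNR1-/- mean 8.48 ± 0.27 (SD, n = 4 each), a log2 fold change of 0.56 (SE 0.20, 95% interval 0.10 to 1.02). The limma adjusted p was 0.152, and the exact permutation p was 0.0286. The unadjusted limma p of 0.0214 became 0.061 without hCNR1+/+ replicate 1, and 0.31 under quantile normalization, where the difference was 0.22.

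Gpx1, the cytosolic and mitochondrial glutathione peroxidase and another selenium enzyme, read 9.98, 10.41, 10.48 and 10.76 in hCNR1+/+ and 10.84, 11.11, 10.61 and 10.99 in hCNR1-/-. Only hCNR1-/- replicate 3 fell below the highest hCNR1+/+ array, replicate 4. The means were 10.41 ± 0.32 and 10.89 ± 0.22 (SD, n = 4 each), and the log2 fold change was 0.48 (SE 0.23, 95% interval -0.04 to 0.99). The limma adjusted p was 0.263, and the exact permutation p was 0.0571. Its unadjusted limma p of 0.0647 passed 0.05 without hCNR1+/+ replicate 4 (0.0308) or without hCNR1-/- replicate 3 (0.0492). The difference between Gpx4 and Gpx1 within an array is not moved by a shift common to all its probes, and it averaged -2.49 ± 0.28 over the hCNR1+/+ arrays and -2.40 ± 0.19 over the hCNR1-/- arrays (SD, n = 4 each, exact permutation p = 0.686).

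Gsr encodes glutathione reductase, which returns oxidized glutathione to its reduced form at the cost of NADPH. Its brightest probe read 6.60, 6.59, 6.83 and 6.63 in hCNR1+/+ and 7.31, 7.20, 7.54 and 6.28 in hCNR1-/-. Of the hCNR1-/- arrays, 3 lay above every hCNR1+/+ array and replicate 4 lay below every one. The means were 6.66 ± 0.11 and 7.08 ± 0.55 (SD, n = 4 each), with a log2 fold change of 0.42 (SE 0.28, 95% interval -0.20 to 1.05), a limma adjusted p of 0.417 and an exact permutation p of 0.143. Without hCNR1-/- replicate 4 the log2 fold change was 0.69 and the limma adjusted p 0.0287. The second Gsr probe gave the same order, with 4.94 to 5.04 in hCNR1+/+, 5.25 to 5.53 on hCNR1-/- arrays 1 to 3 and 3.11 on replicate 4, and its fitted difference over all 8 arrays was -0.18.

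**Figure D2:**
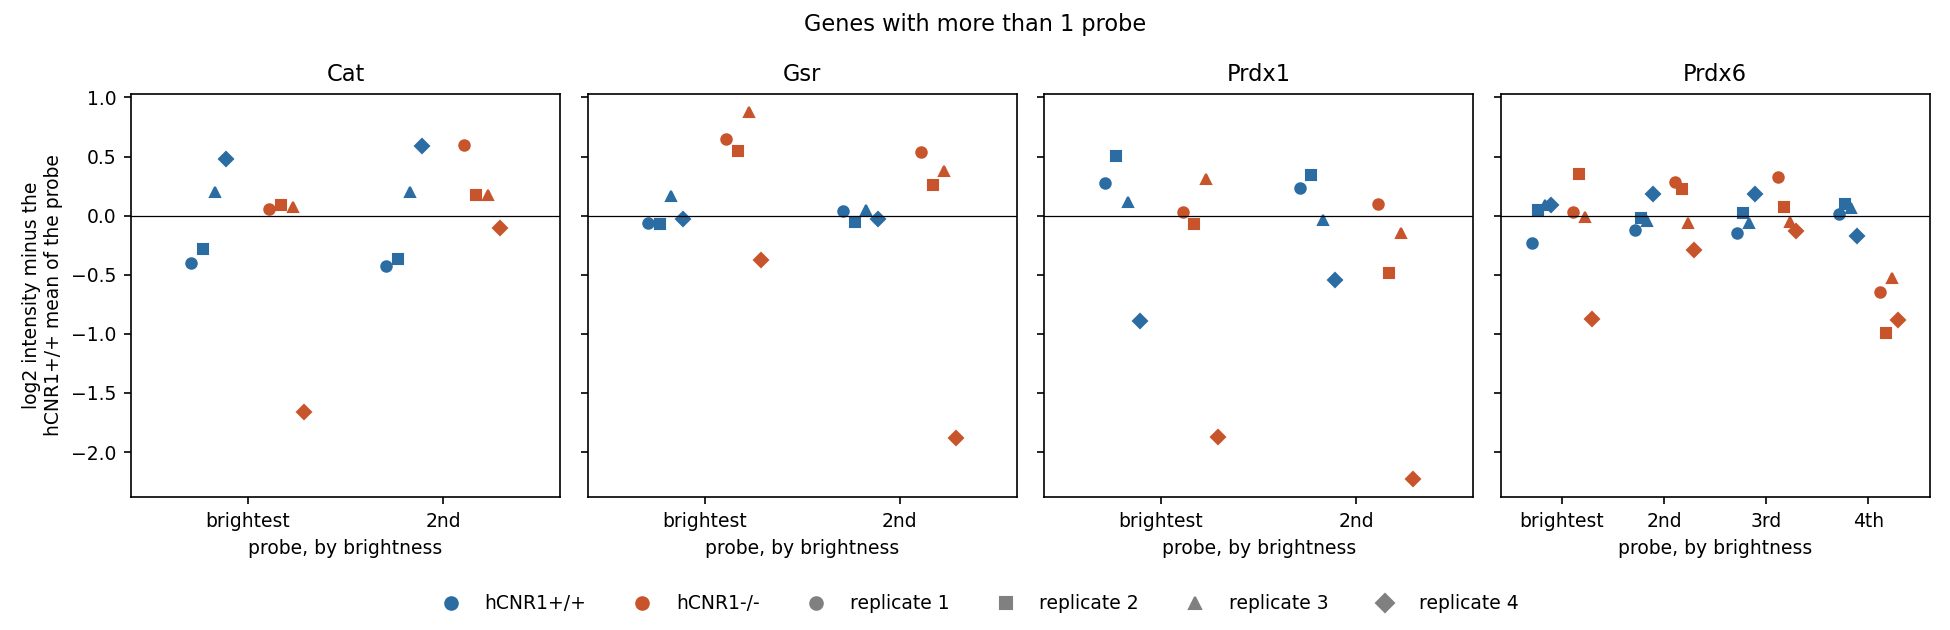
Probes of Cat, Gsr, Prdx1 and Prdx6, the enzymes with more than 1 probe, as log2 intensity on each array minus the mean of the same probe over the 4 hCNR1+/+ arrays, with probes ordered by brightness and replicate numbers shown by symbol. Replicate 4 of hCNR1-/- (orange diamond) lies 0.38 or more below the hCNR1+/+ mean on both Gsr and both Prdx1 probes, while the second Cat probe puts it at 2.01 against a hCNR1+/+ mean of 2.11.

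The groups overlapped for the brightest probe of each of the other peroxiredoxins. Prdx1, the main cytosolic peroxiredoxin, read 7.08, 7.31, 6.92 and 5.91 in hCNR1+/+ and 6.83, 6.73, 7.11 and 4.93 in hCNR1-/-. The replicate 4 arrays of both groups were their group's lowest, and the groups overlapped. Its log2 fold change was -0.40 (SE 0.49, 95% interval -1.51 to 0.71, limma adjusted p 0.67, exact permutation p 0.514), and 0.09 without hCNR1-/- replicate 4. The second Prdx1 probe ran from 2.28 to 3.16 in hCNR1+/+ and from 0.59 to 2.92 in hCNR1-/-.

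Prdx3, the peroxiredoxin of the mitochondrial matrix, was measured by a probe printed in 10 spots on each array. It read 4.27, 4.25, 4.06 and 3.79 in hCNR1+/+ and 4.64, 4.09, 4.19 and 2.90 in hCNR1-/-. Its log2 fold change was -0.14 (SE 0.35, 95% interval -0.93 to 0.65, limma adjusted p 0.848, exact permutation p 0.8) over all arrays and 0.21 without hCNR1-/- replicate 4. Prdx3 was set beside Prdx5 after the values had been seen, because both act in mitochondria and a shift common to all probes of an array does not move their difference. Prdx5 minus Prdx3 came to 3.32, 3.43, 3.61 and 3.86 in hCNR1+/+, against 3.90, 4.12, 3.99 and 5.30 in hCNR1-/-. The groups did not overlap, but the highest hCNR1+/+ and the lowest hCNR1-/- arrays were 0.04 apart (exact permutation p = 0.0286), and 2 such pairs of enzymes were compared. The difference between the group means was 0.77 here, 0.57 under quantile normalization, which is not such a shift, and 0.45 without hCNR1-/- replicate 4.

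Prdx6, which reduces phospholipid peroxides and also has phospholipase activity, was covered by 4 probes. The brightest read 8.17, 8.44, 8.48 and 8.49 in hCNR1+/+ and 8.42, 8.75, 8.39 and 7.52 in hCNR1-/-, with a log2 fold change of -0.13 (SE 0.27, 95% interval -0.74 to 0.49, limma adjusted p 0.82, exact permutation p 0.743), and 0.12 without hCNR1-/- replicate 4. The other bright probes gave differences of 0.04 and 0.05. The dimmest, at -2.21 to -1.94 in hCNR1+/+ and -3.02 to -2.56 in hCNR1-/-, was well above background on 2 and 1 arrays and was not tested. The 3 bright probes, read on the same RNA, therefore lay between -0.13 and 0.05.

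Sod1, the copper and zinc dismutase of the cytosol, read 9.21, 9.61, 9.47 and 9.81 in hCNR1+/+ and 9.71, 10.14, 9.95 and 9.73 in hCNR1-/-. The groups overlapped, since 2 hCNR1-/- arrays lay below the highest hCNR1+/+ array. The log2 fold change was 0.36 (SE 0.21, 95% interval -0.12 to 0.83, limma adjusted p 0.362, exact permutation p 0.0857). Sod2, the manganese dismutase of the mitochondrial matrix, read 7.80, 7.61, 7.89 and 8.26 in hCNR1+/+ and 7.52, 8.23, 7.85 and 7.23 in hCNR1-/-. Its log2 fold change was -0.18 (SE 0.26, 95% interval -0.77 to 0.41, limma adjusted p 0.719, exact permutation p 0.486).

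Catalase, the peroxisomal enzyme that splits hydrogen peroxide without a reducing partner, read 3.52, 3.64, 4.12 and 4.40 in hCNR1+/+ and 3.97, 4.01, 3.997 and 2.26 in hCNR1-/-. On hCNR1-/- arrays 1 to 3 the brightest Cat probe stayed within 0.04, and replicate 4 lay 1.71 below the lowest of these. The log2 fold change was -0.36 (SE 0.42, 95% interval -1.29 to 0.57, limma adjusted p 0.65, exact permutation p 0.6), and 0.07 without hCNR1-/- replicate 4. The second Cat probe gave 0.21 in the other direction (limma adjusted p 0.69), with 1.68 to 2.70 in hCNR1+/+ and 2.01 to 2.71 in hCNR1-/-.

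**Figure D3:**
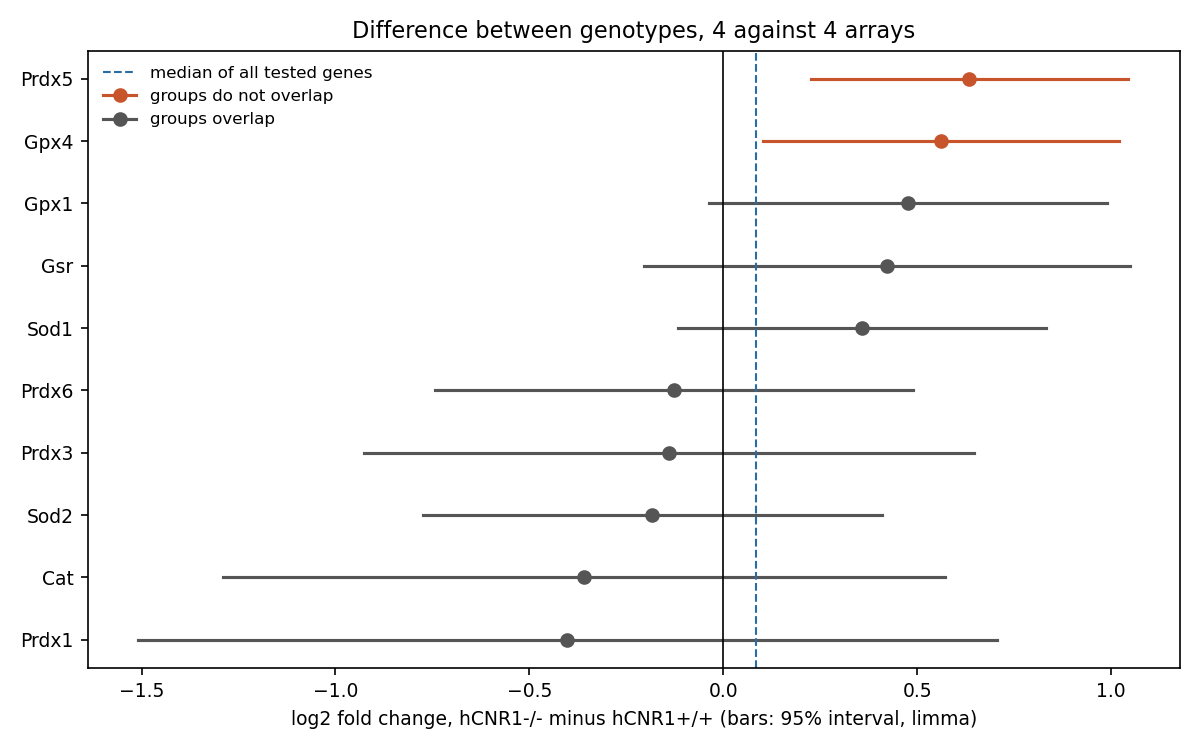
Log2 fold change of each antioxidant enzyme, hCNR1-/- minus hCNR1+/+, with its 95% interval from limma on 4 against 4 arrays, and the median over all tested genes as a dashed line at 0.08. The intervals of Prdx5 (0.23 to 1.04) and Gpx4 (0.10 to 1.02) lie above 0, and the other 8 include 0.

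The scaling between arrays shifted all genes together. With no scaling the median of all genes was -0.47, against 0.08 here, and Sod1, Gpx1 and Gsr read -0.20, -0.08 and -0.13 for that shift alone, while Sod1 was -0.0049 under quantile normalization. Relative to the median of all genes, Sod1, Gpx1, Gpx4, Prdx5 and Gsr were above it and the other 5 below it. The 10 enzymes ranged from -0.49 (Prdx1) to 0.55 (Prdx5). No scaling and the 75th percentile give the same relative values by arithmetic, since they differ by a constant per array. Quantile normalization can move them, and there the same 5 were above the median, Sod1 by 0.007. The range was then -0.62 (Prdx1) to 0.34 (Prdx5). On the whole array the scaling also moved the split of calls, from 1628 higher and 766 lower at an unadjusted p below 0.05 to 1189 and 928 under quantile normalization, 814 and 727 with the deposited scores, 938 and 1460 with a percentile taken over bright probes, and 87 and 630 with no scaling. Replicate 4 of hCNR1-/- was the lowest of its group for 6 of the 10 enzymes, beside 53.3% of all tested genes. Leaving it out raised the median of all genes to 0.17 and put Cat, Prdx1, Prdx3 and Prdx6 above 0 and Sod2 at -0.02. Relative to that median Cat, Prdx1 and Prdx6 stayed below, at -0.10, -0.09 and -0.05, and Prdx3 lay at 0.04. Without that array Prdx5 and Gsr, 2 of the 10 enzymes, passed an adjusted p of 0.05 in limma, beside 10.1% of all tested genes called higher.

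**Figure D4:**
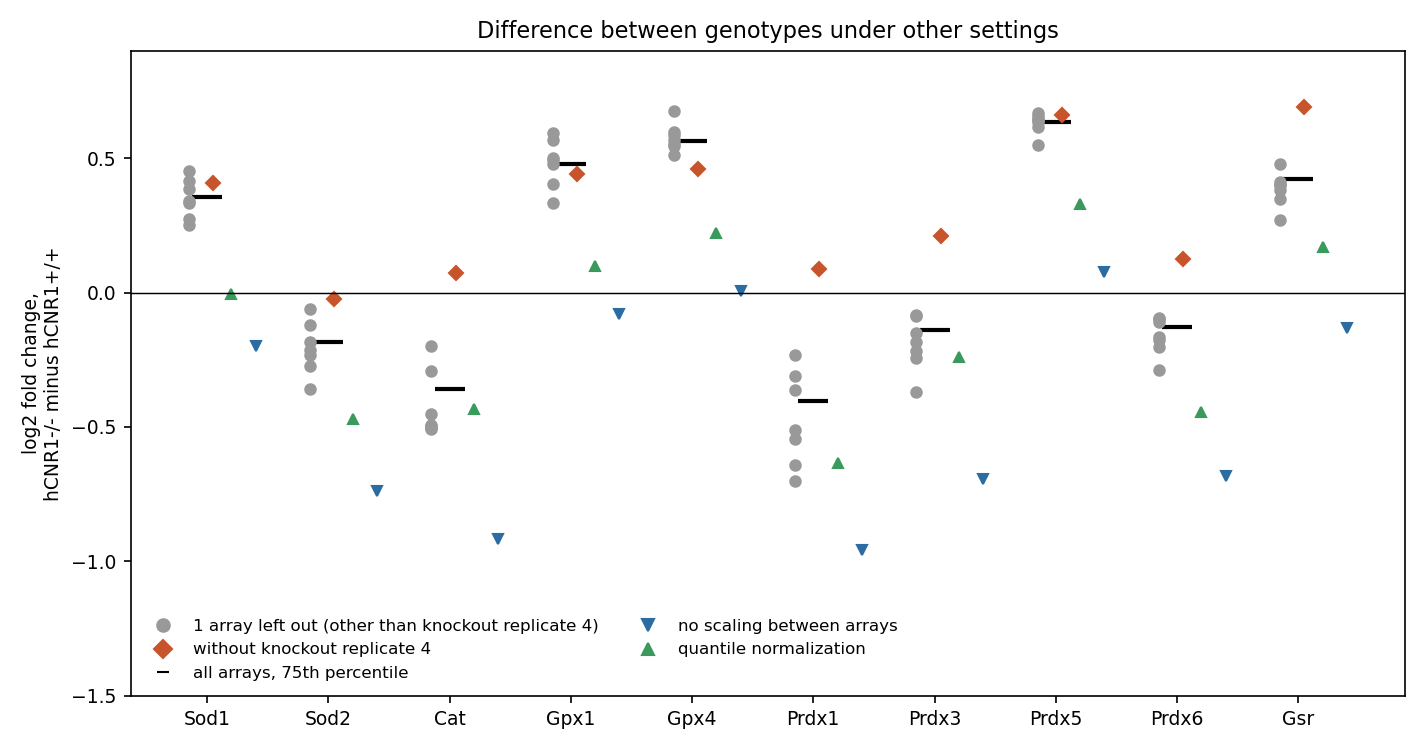
Log2 fold change of the 10 enzymes with all arrays (black bar), with 1 array left out (grey, and orange for hCNR1-/- replicate 4), under quantile normalization (green) and with no scaling between arrays (blue). Prdx5 and Gpx4 stay above 0 under all of these, down to 0.08 and 0.01 with no scaling, while Cat, Prdx1, Prdx3 and Prdx6 lie on the other side of 0 without replicate 4, where the median of all genes was 0.17 and not 0.08.

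After the group means were subtracted, the enzymes whose deviations over the 8 arrays followed each other most were Cat with Prdx6 (Pearson r 0.916), Prdx1 with Prdx3 (0.902) and Cat with Gsr (0.895), all of them low on hCNR1-/- replicate 4. Gpx4 and Gsr ran against each other (r -0.747). These are descriptions over 8 arrays that share their scaling. Among 8329 other genes well above background on all arrays, the nearest to Prdx5 were Ergic1 (0.975), Baiap2 (0.973) and Fosl1 (0.963). The nearest to Gpx4 were Map3k11 (0.988), Atp5d (0.976) and Rara (0.957), and the nearest to Gpx1 were Zglp1 (0.968), Ppan (0.962) and Slc16a3 (0.957). They are the highest values of a search over 8329 genes on 8 arrays, and how high such values run by chance was not tested.

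The genes around these enzymes were read in 5 lists with 59 genes, of which 56 were tested and Gpx8, Ggt1 and Nnt were not. Of these, 1 (1.79%) passed an adjusted p of 0.05, upward, beside 2.94% of all tested genes, and none downward. At an unadjusted p below 0.05, 10 (17.9%) were higher and 2 (3.57%) lower, beside 14.7% and 6.92% of all tested genes, shares close to or below the background. Their median log2 fold change was 0.21, beside 0.08 for all tested genes. The count of 10 moved with single arrays left out, to 20 without hCNR1-/- replicate 4 and to between 4 and 6 without any 1 other array. It also moved with the scaling, to 0 under median scaling and 5 under quantile normalization. Of all tested genes, 10.7% to 24% were higher with 1 array left out, 5.13% under median scaling and 10.7% under quantile normalization.

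The gene that passed was Txn2, the mitochondrial thioredoxin, which recharges Prdx3 and Prdx5. It read 7.26, 7.67, 7.39 and 7.33 in hCNR1+/+ and 8.39, 8.48, 8.09 and 8.14 in hCNR1-/-. Every hCNR1-/- array lay above every hCNR1+/+ array, as held for 12.7% of all tested genes. The log2 fold change was 0.86 (SE 0.20, 95% interval 0.42 to 1.30) with a limma adjusted p of 0.0455 and an exact permutation p of 0.0286. The adjusted p ranged from 0.0749 to 0.143 when any 1 array other than hCNR1-/- replicate 4 was left out, was 0.0199 without that array, and was 0.139 under quantile normalization.

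In the same list of 18 thioredoxin and glutaredoxin genes, 4 more had an unadjusted p below 0.05, all higher, and they are named after their values were seen because they are few. With Txn2 they made 5 of 18 (27.8%), beside 14.7% of all tested genes. Txnrd2, the mitochondrial reductase of Txn2, had a log2 fold change of 0.49 (limma adjusted p 0.21), from 5.59 to 5.92 in hCNR1+/+ to 5.93 to 6.59 in hCNR1-/-. Glrx5, a mitochondrial glutaredoxin of iron-sulfur cluster assembly, had 0.47 (adjusted p 0.188 in limma), and Sesn2, a stress-induced sestrin, 0.55 (0.177). Msrb3, a methionine sulfoxide reductase, had 1.16 (0.163), but was well above background on 2 arrays of each group and overlapped between groups. With no scaling, which moved the median of all genes to -0.47, these were -0.065 for Txnrd2, -0.090 for Glrx5 and -0.0061 for Sesn2. Relative to the median they were 0.41, 0.38 and 0.47 with and without the scaling, which is fixed by arithmetic. Under quantile normalization the log2 fold changes were 0.28 for Txnrd2, 0.14 for Glrx5 and 0.42 for Sesn2 (unadjusted limma p 0.235, 0.446 and 0.115). Msrb3 was 1.18 there (unadjusted limma p 0.0339). Of the cytosolic pair, Txn1 had -0.27 (adjusted p 0.519 in limma), and Txnrd1 0.24 (0.783), with 7.45 to 7.54 on hCNR1-/- arrays 1 to 3, 5.39 on replicate 4 and 6.58 to 6.86 in hCNR1+/+.

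None of the 6 tested family members outside the 10 enzymes passed an unadjusted p of 0.05, and their log2 fold changes ran from -0.83 to 0.39. In the list on glutathione synthesis and use, 1 of 11 tested genes was lower and 1 higher at that threshold (9.09% each). Of all tested genes 6.92% were lower and 14.7% higher. Mgst1, the membrane-bound glutathione transferase, read 7.81, 7.96, 8.15 and 8.54 in hCNR1+/+ and 7.16, 7.501, 7.80 and 6.22 in hCNR1-/-, all 4 below the lowest hCNR1+/+ array, as held for 5.04% of all tested genes. Its log2 fold change was -0.94 (SE 0.34, limma adjusted p 0.151), and -0.63 without hCNR1-/- replicate 4, and its unadjusted limma p was 0.0563 without hCNR1+/+ replicate 4. Gss, which joins glycine to complete glutathione, had 0.56 (SE 0.22, limma adjusted p 0.189), from 4.79 to 5.17 in hCNR1+/+ to 5.18 to 5.93 in hCNR1-/-.

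Of 6 tested genes of NADPH supply, 2 (33.3%) were higher at an unadjusted p below 0.05, beside 14.7% of all tested genes. Pgls, the lactonase of the pentose phosphate pathway, had a log2 fold change of 0.91 (SE 0.30, limma adjusted p 0.117). Its hCNR1-/- arrays all lay above its hCNR1+/+ arrays, as held for 12.7% of all tested genes. Idh1, the cytosolic NADP-dependent isocitrate dehydrogenase, had 0.65 (SE 0.29, limma adjusted p 0.222), and the groups overlapped. Of 15 genes of metal and selenium supply, 2 (13.3%) were higher and 1 (6.67%) lower at that threshold, beside 14.7% and 6.92% of all tested genes. Atox1, the copper chaperone that feeds the copper pumps, read 9.29, 9.20, 9.57 and 9.44 in hCNR1+/+ and 10.06, 10.43, 10.19 and 9.88 in hCNR1-/-, a log2 fold change of 0.76 (SE 0.20, limma adjusted p 0.0657) that became 0.85 with an adjusted p of 0.021 without hCNR1-/- replicate 4. Under quantile normalization Atox1 stood at 0.41, with an unadjusted limma p of 0.0749, and its unadjusted p was 0.131 with median scaling, 0.0669 with the deposited scores and 0.0577 with normexp. Slc39a8, an importer of zinc and manganese, had -0.85 (SE 0.28, limma adjusted p 0.117). Its probe was dim, at -1.33 to -0.18 in hCNR1+/+ and -2.02 to -1.39 in hCNR1-/-, and well above background on 4 and 3 arrays. Under normexp the Slc39a8 difference was -0.36 (unadjusted limma p 0.101). Selenot, a selenoprotein of the endoplasmic reticulum, had 0.63 (SE 0.27, limma adjusted p 0.219).

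**Figure D5:**
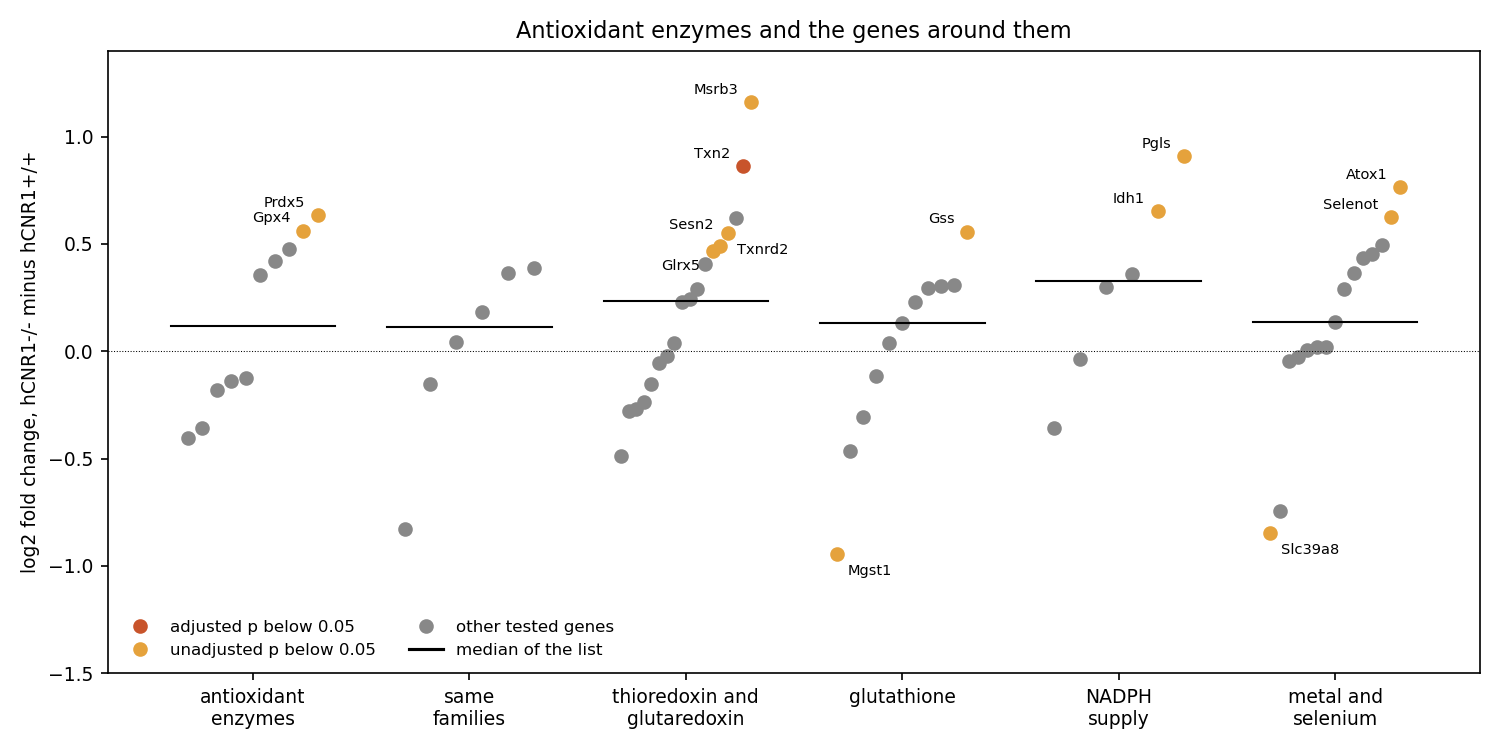
Log2 fold change of the antioxidant enzymes and of the tested genes in 5 lists around them, hCNR1-/- minus hCNR1+/+, with 1 point per gene and a bar at the median of each list. Txn2 (0.86) is the gene past an adjusted p of 0.05, and genes with an unadjusted p below 0.05 carry their names.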

How the data were processed

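Hepatocyte RNA of 8 mice was measured on 1-colour Agilent arrays, labelled with Cy3, 1 array per mouse. The authors deposited the spot intensities of Feature Extraction version 12.0.3.1, which subtracts background within an array and does not scale between arrays, and a score per spot that lay within 0.005 of the z-score of log intensity on its array. The scaling and the test used in the study are not given in the sources used here.

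Groups came from the genotype labels. Log2 intensities were centred on the 75th percentile over 59305 non-control spots of their array, spots flagged as outliers were dropped, and spots were averaged per probe. Transcript accessions matched RefSeq names for 28331 of 55681 probes. Genes were tested on their brightest probe, if Feature Extraction flagged it as well above background for 4 or more of the 8 arrays. The test was lmFit and eBayes of limma 3.58.1 in R 4.3.3, two-sided, with Benjamini-Hochberg adjustment. A difference of log2 values is the log2 fold change. Single values had an exact two-sided permutation test over 70 assignments. On simulated data for this comparison with 200 of 11072 genes changed, the fit recovered 76.5% of these and called 4 others. Recovery of differences as small as those of the enzymes was not tested.

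The enzymes, the 5 lists around them and the marker lists were chosen with earlier results of these data known. Text names every enzyme, the genes of each list past the adjusted threshold or else up to 3 with the lowest unadjusted p below 0.05, and the 3 nearest genes of the 3 enzymes with the lowest p, with exceptions named where they occur. Other scalings, the deposited scores, normexp (on median signals, offset 50), filters, probe rules, variance models, a replicate block and each array left out were tried, and 2 alternatives were added after seeing the data. All arrays lay on 1 slide with 1 scan day, so a slide block could not be fitted. The number of arrays limits the precision.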

Additional observations from a re-analysis of the deposited data

Results flagged for a closer look

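Within a group of 4 arrays, a value far from the other 3 was looked for by the ratio of its gap to the group's range, set against Dixon's 95% critical value, which chance passes in about 1 group in 20. Of 44 groups examined (22 genes in 2 genotypes), 5 passed. Cat on hCNR1-/- replicate 4 read 2.26 against 3.97 to 4.01 on the other 3 arrays (ratio 0.98). Prdx5 on hCNR1-/- replicate 1 read 8.54 against 8.18 to 8.21 (ratio 0.905), which is the array farthest from the hCNR1+/+ group. Prdx6 on hCNR1+/+ replicate 1 read 8.17 against 8.44 to 8.49 (ratio 0.863), and Gsr on hCNR1+/+ replicate 3 read 6.83 against 6.59 to 6.63 (ratio 0.832). Selenot on hCNR1-/- replicate 4 read 2.52 against 1.58 to 1.72 (ratio 0.855). Replicate 4 of hCNR1-/- is the dimmest array, and its part in these values was not tested.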

How the results depend on the processing

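No alternative called an antioxidant enzyme lower, at an adjusted or an unadjusted p below 0.05. The 0 enzymes called higher at an adjusted p below 0.05 (limma) became 1 with a trended, robust prior (Prdx5), and 2 with array weights, without hCNR1-/- replicate 4 and without both replicate 4 arrays (Prdx5 and Gsr with array weights and without hCNR1-/- replicate 4), and the range over single arrays left out was 0 to 2. In the same settings the share of all tested genes called higher rose from 2.94% to 3.73% with the trended prior, 19.7% with array weights, 10.1% without hCNR1-/- replicate 4 and 15.4% without both, so 2 of 10 is near the background of these settings. The 2 enzymes higher at an unadjusted p became 0 under quantile normalization, median scaling, no scaling, the deposited scores and normexp, 1 with no filter on dim probes and with a 75th percentile over bright probes, 5 with array weights and without both replicate 4 arrays, and 1 to 3 with single arrays left out. Of all tested genes, 14.7% were higher at that threshold with the main settings. The share was 10.7%, 5.13%, 0.786%, 7.35% and 7.43% under quantile normalization to normexp, in the order given. It was 6.59% with no filter and 8.47% with bright probes. With array weights it was 29.7%, without both replicate 4 arrays 28.7%, and with single arrays left out 10.7% to 24%. The percentile over bright probes and the removal of both replicate 4 arrays were chosen after seeing the data. A slide block could not be fitted. The 95% intervals of 8 enzymes included 0. The cause of the changes below was not tested.

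By enzyme, Prdx5 and Gpx4 kept their direction under all 22 alternatives. The filters, the probe rules, the trended prior and the replicate block could not change it, since each gene has 1 probe and its difference is the same there. Prdx5 no longer passed the unadjusted threshold at 0.33 (quantile), 0.59 (median scaling), 0.078 (no scaling), 0.62 (deposited scores, multiplied by the mean array SD) and 0.51 (normexp). Neither did Gpx4 at 0.22, 0.52, 0.0067, 0.59 and 0.43 under the same 5, at 0.56 with no filter and at 0.40 with bright probes. With no scaling, a shift common to all genes, Gpx1 was -0.079. It passed the unadjusted threshold at 0.48 with the trended prior, 0.48 with array weights and 0.56 without both replicate 4 arrays. Sod1 was -0.0049 (quantile) and -0.20 (no scaling), and passed at 0.47 (array weights) and 0.50 (without both). Gsr was -0.13 with no scaling, and passed at 0.62 (array weights) and 0.68 (without both). Turned above 0 with array weights and without both replicate 4 arrays were Sod2 (0.040 and 0.10), Cat (0.058 and 0.23), Prdx3 (0.13 and 0.11) and Prdx6 (0.095 and 0.15).

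With single arrays left out the log2 fold changes ran from 0.25 to 0.45 for Sod1, -0.36 to -0.022 for Sod2, -0.51 to 0.073 for Cat, 0.33 to 0.60 for Gpx1, 0.46 to 0.68 for Gpx4, -0.70 to 0.089 for Prdx1, -0.37 to 0.21 for Prdx3, 0.55 to 0.67 for Prdx5, -0.29 to 0.12 for Prdx6 and 0.27 to 0.69 for Gsr.

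Of the genes around the enzymes, the 1 higher at an adjusted p became 0 under quantile normalization, median scaling, no scaling, the deposited scores, normexp, no filter, bright probes and the replicate block, 2 with the trended prior, 11 of 56 with array weights and 9 without both replicate 4 arrays (beside 19.7% and 15.4% of all tested genes), and 0 to 6 with single arrays left out. The 0 lower became 2 with array weights and without both replicate 4 arrays (beside 5.83% and 4.34% of all tested genes), and 0 to 1 with single arrays left out. At an unadjusted p, the 10 higher became 5 (quantile), 0 (median scaling), 0 (no scaling), 1 (deposited scores), 2 (normexp), 4 (no filter), 2 (bright probes), 23 (array weights), 22 (without both) and 4 to 20 with single arrays left out. In the same order, the shares of all tested genes were 10.7%, 5.13%, 0.786%, 7.35%, 7.43%, 6.59%, 8.47%, 29.7%, 28.7% and 10.7% to 24%. The 2 lower became 4 (quantile, array weights), 1 (median scaling, normexp, probes bright on all 8 arrays) and 1 to 3 with single arrays left out. In the same order, the shares of all tested genes were 8.38%, 9.85%, 3.27%, 3.72%, 4.79% and 5.28% to 7.69%. With no scaling, which moves all genes alike (median -0.47), Sesn2 was -0.0061, Glrx5 -0.090 and Txnrd2 -0.065, and relative to the median of all genes they kept 0.47, 0.38 and 0.41.

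The sample titles share replicate numbers between the groups and do not say whether same-numbered mice were paired. Same-numbered arrays deviated from their group means with correlations of 0.211, -0.157, -0.053 and 0.017, which cannot settle it. The replicate number is also the column of the array on the slide, so a replicate block cannot be told apart from a column block. With the replicate block 0 enzymes passed the adjusted threshold and 2 the unadjusted one, with Prdx5 at 0.63 (unadjusted limma p 0.0217) and Gpx4 at 0.56 (0.0483), while the calls over all genes at an adjusted p fell to 0, with 1522 higher and 732 lower at an unadjusted p below 0.05.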
